A study of Mus musculus with 9 samples.

Results

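The oligoadenylate synthetase (Oas) family of the mouse is described here in D2A1-d cells, a mouse breast carcinoma line, after knockdown of the Mediator subunit Med4. Members were chosen by symbol, namely Oas1a, Oas1b, Oas1c, Oas1g, Oas2, Oas3, Oasl1 and Oasl2, which are 8 of 55335 gene identifiers. All 8 had reads, and 7 were among the 14335 genes with enough reads to be tested. The 9 libraries fall into 3 groups of 3, labelled as biological replicates: cells transduced with a non-targeting control hairpin (NTC, genotype WT), with shMed4 #1 or with shMed4 #4, the last pair labelled Med4 Knockdown and all of them otherwise untreated. The labels do not say whether replicates were transduced separately, so p-values speak only of the spread among these libraries, which may be technical. Each library held 7572114 to 8582235 reads assigned to genes, and the family took 73 to 495 of them, so its values rest on few reads.

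Oligoadenylate synthetases are sensors of double-stranded RNA. Once bound to it, the active enzymes polymerise ATP into short oligoadenylates, the second messenger of an antiviral pathway. The genes are transcribed in response to interferon, through a factor that contains STAT2 and IRF9 and binds an interferon-stimulated response element in their promoters. Oas1a and Oas1g encode active single-domain enzymes, while Oas2 and Oas3 carry repeated synthetase domains. Oas1b is known as the gene of flavivirus resistance and is cut short by a stop codon in many laboratory strains. Oasl1 and Oasl2 carry ubiquitin-like domains; Oasl1 makes no oligoadenylates and is known to hold back translation of Irf7.

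The promoters are shown because they hold the letters through which the family is known to answer interferon. RefSeq promoter windows on GRCm38.p6, of 300 bases each, matched 6 of the 8 members by symbol; Oas1b and Oas2 had no entry. The core of the response element, GAAA and a further GAAA with any 2 bases between them, was searched on both strands (on the other strand it reads TTTC, any 2 bases, TTTC). It was found in 4 of these 6 windows and in 3.44% of all 32851 windows of that length. The windows of Oasl1 and Oasl2 did not hold these letters. Below are the 120 bases before the annotated start of each gene with a match, all on the minus strand and written 5′ to 3′, with the matching letters in capitals. They lie at chr5:120907526-120907645 for Oas1a, chr5:120887614-120887733 for Oas1g, chr5:120777660-120777779 for Oas3 and chr5:120812515-120812634 for Oas1c.
Oas1a: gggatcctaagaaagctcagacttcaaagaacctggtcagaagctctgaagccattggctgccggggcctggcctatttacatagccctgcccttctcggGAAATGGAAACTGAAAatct
Oas1g: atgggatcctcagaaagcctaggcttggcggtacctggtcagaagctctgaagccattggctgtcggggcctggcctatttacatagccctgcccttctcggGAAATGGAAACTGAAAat
Oas3: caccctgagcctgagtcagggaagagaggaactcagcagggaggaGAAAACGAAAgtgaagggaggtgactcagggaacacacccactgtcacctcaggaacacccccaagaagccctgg
Oas1c: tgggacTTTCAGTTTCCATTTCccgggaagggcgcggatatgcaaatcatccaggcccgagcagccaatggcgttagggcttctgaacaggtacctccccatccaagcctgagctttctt

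In Oas1a and Oas1g the capitals are the same 16 letters, a run of 2 overlapping matches. The run ended 5 bases before the start of Oas1a and 3 bases before that of Oas1g. The match of Oas3 lay 66 to 75 bases before its start. The Oas1c run, the same 16 letters as in Oas1a and Oas1g read on the other strand, lay 99 to 114 bases before its own start. Oas1c and Oas1b are arranged head to head with 120 bases between their starts in GENCODE M21, and the same run lies only 7 to 22 bases before the start of Oas1b. A match describes letters and is not a shown site of binding.

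With shMed4 #1 most of the family stood well above NTC, and under shMed4 #4 only Oasl1 and Oas1b passed the test; Oas1a, as far from NTC as Oas1b, did not. Against NTC, 6 of the 7 tested members rose under shMed4 #1 and 0 fell; over all tested genes 41.6% passed, 21.8% higher and 19.8% lower. With shMed4 #4, 2 rose (Oasl1 and Oas1b) and 0 fell, where 55.1% of all tested genes passed, 27.8% higher and 27.3% lower. The median log2 fold change of the 7 was 2.38 under shMed4 #1 and 0.54 under shMed4 #4, where that of all tested genes was -0.01 with each. In the direct comparison of the hairpins, 6 of 7 were lower under shMed4 #4 and 0 higher, where 28.0% of all tested genes passed, 13.9% lower and 14.2% higher. A gene is said to rise or fall where its edgeR quasi-likelihood p, adjusted over all tested genes, was under 0.05. These counts describe the family and are no independent test of it, since it was singled out with results of these libraries known. Oas2 and Oas1c passed the low-count filter only through the shMed4 #1 libraries, and both comparisons with NTC share the NTC libraries.

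Summed over all 8 members, the level was 9.08, 12.7 and 14.7 CPM (the usual per-library scaling of read counts, with TMM factors) in the NTC libraries. It was 60.6, 59.9 and 50.8 CPM in the shMed4 #1 libraries and 16.3, 17.9 and 16.6 CPM in the shMed4 #4 libraries. The 3 shMed4 #1 libraries thus stood apart from the other 6, and the shMed4 #4 libraries all lay just above the highest NTC library. In bulk RNA, a change in the number of expressing cells and a change in RNA per cell cannot be told apart. Med4 itself was at 27.4 ± 2.2 CPM in NTC, 4.53 ± 0.39 under shMed4 #1 and 7.21 ± 0.98 under shMed4 #4 (SD, n = 3 each), lower than NTC in all 6 knockdown libraries.

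**Figure D1:**
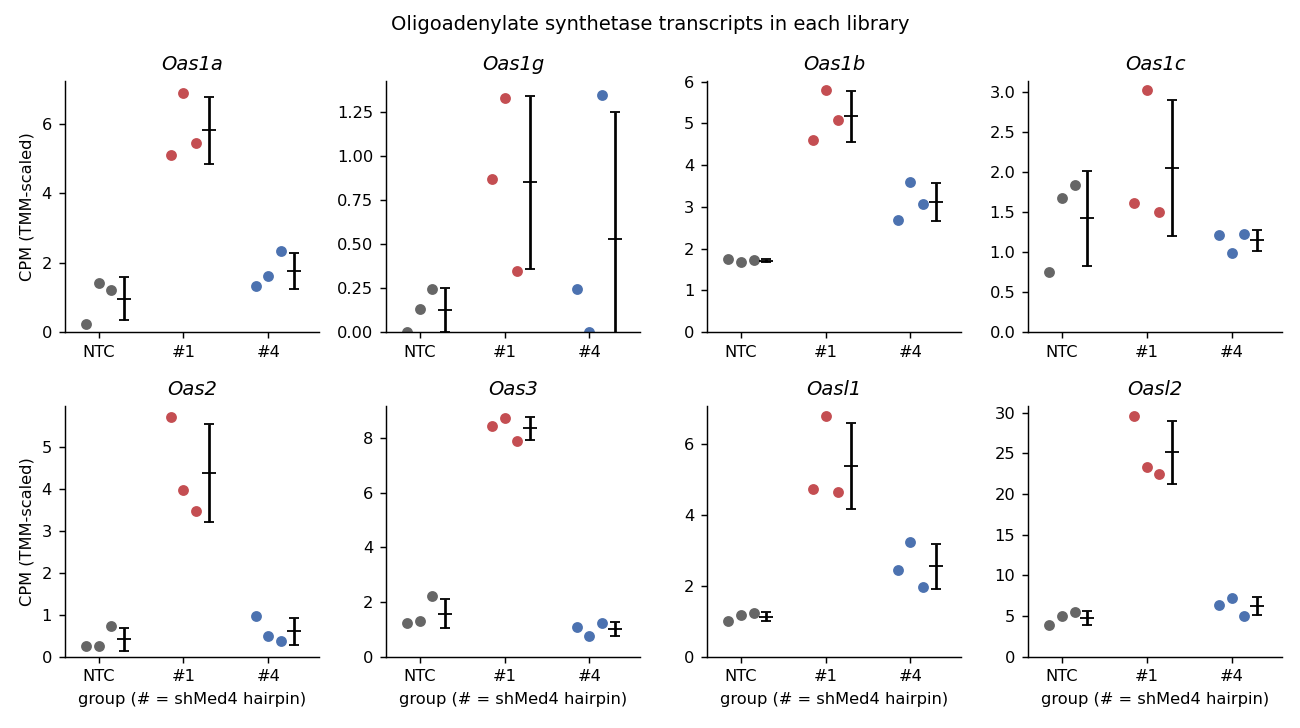
Level of each of the 8 members in each library, in CPM with TMM scaling on a linear axis from 0; points are libraries, and the bar beside them is the mean ± SD of 3 (the lower bar of Oas1g under shMed4 #4 runs below the axis). The 3 shMed4 #1 libraries lie above all NTC and shMed4 #4 libraries for Oas1a, Oas1b, Oas2, Oas3, Oasl1 and Oasl2. The share of all tested genes separated like this was not counted.

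Among the single-domain synthetases, Oas1a (chromosome 5, 120896256 to 120907521, GRCm38) had 2, 11 and 10 reads in the NTC libraries, 41, 57 and 47 under shMed4 #1 and 11, 13 and 19 under shMed4 #4. The shMed4 #1 libraries lay above all others, and those of shMed4 #4 overlapped NTC. Its level was 0.966 ± 0.63 CPM in NTC, 5.81 ± 0.96 under shMed4 #1 and 1.76 ± 0.51 under shMed4 #4 (SD over 3 libraries). In log2 units it differed from NTC by 2.58 under shMed4 #1 (SE 0.31, edgeR adjusted p = 1.71e-08) and 0.86 under shMed4 #4 (SE 0.41, edgeR adjusted p = 0.0702). The value for shMed4 #4 passed with limma-voom (1.08, adjusted p = 0.0364), without NTC replicate 2 (1.23, edgeR adjusted p = 0.0336) and without shMed4 #4 replicate 1 (1.03, edgeR adjusted p = 0.0437). Between the hairpins the log2 difference was -1.71 (SE 0.27, edgeR adjusted p = 6.46e-06).

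Oas1g (120876142 to 120887613), the nearest relative of Oas1a, was the member with the fewest reads and did not pass the low-count filter. It had 0, 1 and 2 reads in NTC, 7, 11 and 3 under shMed4 #1 and 2, 0 and 11 under shMed4 #4. The shMed4 #1 libraries lay above NTC, while the shMed4 #4 libraries spanned the whole range, with 11 of their reads in replicate 3. With no low-count filter the log2 fold change of Oas1g was 2.62 under shMed4 #1 (SE 0.78, edgeR adjusted p = 0.00568) and 1.98 under shMed4 #4 (SE 0.86, edgeR adjusted p = 0.0712). The longest coding transcripts of Oas1a and Oas1g are 97.7% identical over 1859 aligned bases. Of the 50-base stretches of Oas1a transcripts, 57.6% also occur in another gene, mostly Oas1g, and of those of Oas1g 45.7% do. Reads that align to several places were not counted, so both levels are too low and the split between them is uncertain. Oas1b shared only 2.98% of its stretches, and Oas2 and Oasl1 shared 0%.

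Because of this, the reads of all 8 Oas1 genes in the annotation were also summed. This removes the uncertain split, but reads that align to several places are still missing, so the sum is also too low. The sum was 22, 38 and 41 reads in NTC, 99, 143 and 107 under shMed4 #1 and 45, 50 and 65 under shMed4 #4. The groups did not overlap, and shMed4 #4 lay between NTC and shMed4 #1. The log2 fold change of the sum was 1.73 under shMed4 #1 (SE 0.19, edgeR adjusted p = 1.52e-09) and 0.63 under shMed4 #4 (SE 0.22, edgeR adjusted p = 0.014). The second value did not pass without NTC replicate 1 (0.40, edgeR adjusted p = 0.144) or without shMed4 #4 replicate 3 (0.47, edgeR adjusted p = 0.106). Oas1d, Oas1e and Oas1f had 0 reads in all libraries, and Oas1h had 3 reads, all under shMed4 #1.

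Oas1b (120812635 to 120824163, annotated as a polymorphic pseudogene) had 14, 13 and 14 reads in NTC, 37, 48 and 44 under shMed4 #1 and 22, 29 and 25 under shMed4 #4. The 3 groups were separate, and shMed4 #4 lay in the middle. Its log2 fold change was 1.58 under shMed4 #1 (SE 0.25, edgeR adjusted p = 2.04e-06) and 0.86 under shMed4 #4 (SE 0.28, edgeR adjusted p = 0.00831). The hairpins differed by -0.73 (SE 0.22, edgeR adjusted p = 0.00972). That difference did not pass with DESeq2 (adjusted p = 0.0622), without shMed4 #1 replicate 2 (edgeR adjusted p = 0.0555) or without shMed4 #4 replicate 1 (edgeR adjusted p = 0.0578).

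Oas1c (120800194 to 120812514), which lies head to head with Oas1b and lacks synthetase activity, passed in neither comparison with NTC. Oas1c had 6, 13 and 15 reads in NTC, 13, 25 and 13 under shMed4 #1 and 10, 8 and 10 under shMed4 #4. Both knockdown groups overlapped NTC. The log2 fold change was 0.52 under shMed4 #1 (95% interval -0.17 to 1.21, edgeR adjusted p = 0.246) and -0.31 under shMed4 #4 (95% interval -1.09 to 0.48, edgeR adjusted p = 0.545). These intervals still allow a 2-fold rise under shMed4 #1 and a 2-fold fall under shMed4 #4. Exons of the noncoding gene Gm43069 on the other strand cover 9.44% of its exon sequence; Gm43069 had 48 reads over the 9 libraries.

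The large synthetases differed most between the hairpins. Oas2 (120730333 to 120749853) had 2, 2 and 6 reads in NTC, 46, 33 and 30 under shMed4 #1 and 8, 4 and 3 under shMed4 #4. All shMed4 #1 libraries lay above the other 6, and shMed4 #4 overlapped NTC. At 0.415 ± 0.28 CPM in NTC and 4.39 ± 1.2 under shMed4 #1 (SD, n = 3 each), it had the largest log2 fold change of the tested members with this hairpin, 3.34 (SE 0.39, edgeR adjusted p = 7.67e-09). With shMed4 #4 it was at 0.613 ± 0.32 CPM, a log2 fold change of 0.54 (95% interval -0.66 to 1.74, edgeR adjusted p = 0.475). The difference between the hairpins was -2.80 (SE 0.36, edgeR adjusted p = 1.09e-07).

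Oas3 (120753098 to 120777661), reported as the main source of oligoadenylates in human cells, had 10, 10 and 18 reads in NTC, 68, 72 and 68 under shMed4 #1 and 9, 6 and 10 under shMed4 #4. The shMed4 #1 libraries were high and close to each other, and every shMed4 #4 library had no more reads than the lowest NTC library. Its level was 1.58 ± 0.54 CPM in NTC, 8.34 ± 0.43 under shMed4 #1 and 1.02 ± 0.25 under shMed4 #4 (SD over 3 libraries). In log2 units it differed from NTC by 2.38 under shMed4 #1 (SE 0.23, edgeR adjusted p = 1.07e-10). It was -0.62 under shMed4 #4 (95% interval -1.35 to 0.10, edgeR adjusted p = 0.151). The log2 difference between the hairpins, -3.01 (SE 0.26, edgeR adjusted p = 7.88e-12), was the largest of the 7 tested members.

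The synthetase-like genes lie apart from the others, elsewhere on chromosome 5. Oasl2 (114896936 to 114912234) gave the most reads of the family, with 31, 39 and 45 in NTC, 238, 193 and 194 under shMed4 #1 and 52, 58 and 41 under shMed4 #4. Only the shMed4 #1 libraries stood clear of NTC. In CPM it was at 4.81 ± 0.86 in NTC, 25.1 ± 3.9 under shMed4 #1 and 6.19 ± 1.1 under shMed4 #4 (SD over 3 libraries). In log2 units it differed from NTC by 2.38 under shMed4 #1 (SE 0.15, edgeR adjusted p = 9.89e-16) and 0.36 under shMed4 #4 (SE 0.20, edgeR adjusted p = 0.123). The hairpins differed by -2.02 (SE 0.14, edgeR adjusted p = 7.44e-14).

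Oasl1 (114923240 to 114937915) had 8, 9 and 10 reads in NTC, 38, 56 and 40 under shMed4 #1 and 20, 26 and 16 under shMed4 #4. As with Oas1b the 3 groups were separate and shMed4 #4 lay between the others. Its log2 change from NTC was 2.24 under shMed4 #1 (SE 0.29, edgeR adjusted p = 4.43e-08) and 1.16 under shMed4 #4 (SE 0.34, edgeR adjusted p = 0.00354). The hairpins differed by -1.08 (SE 0.24, edgeR adjusted p = 0.000629).

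**Figure D2:**
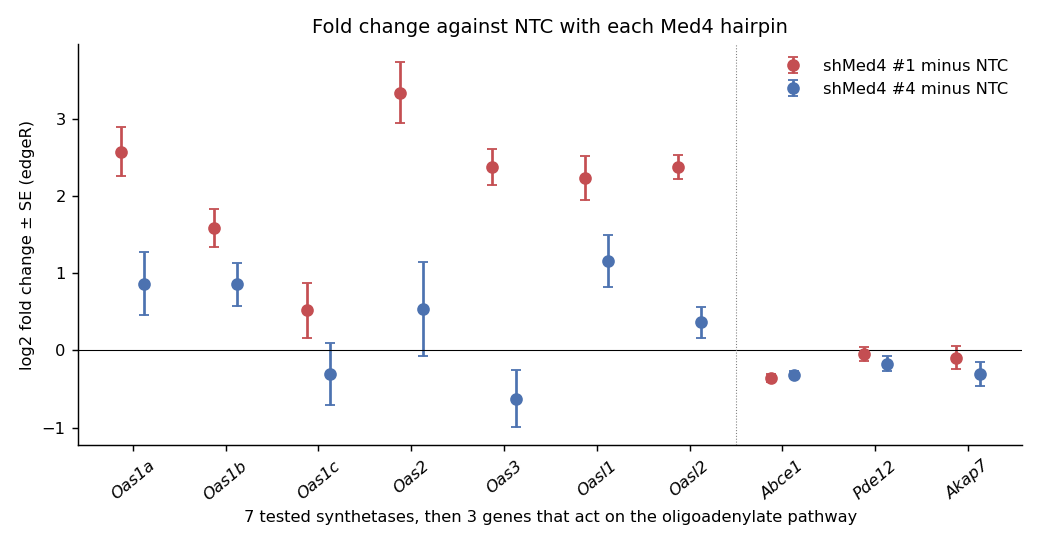
Log2 fold change against NTC with each hairpin, as the edgeR estimate ± SE from 3 libraries a group, for the 7 tested synthetases (left of the dotted line) and for 3 genes that act on the oligoadenylate pathway. The largest difference between the hairpins is at Oas3, 2.38 against -0.62, and Abce1 lies at -0.36 and -0.31.

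Levels of different genes are compared as CPM per kilobase of annotated exon (GENCODE M21), which is too low for Oas1a and Oas1g. In NTC the order ran from Oas1b (0.860 ± 0.016) and Oasl2 (0.754 ± 0.13) over Oas1c (0.591 ± 0.25), Oas1a (0.512 ± 0.33) and Oasl1 (0.433 ± 0.046) to Oas3 (0.224 ± 0.077), Oas2 (0.0931 ± 0.063) and Oas1g (0.0534 ± 0.052), with SD and n = 3 each. Neighbours in this order differed by less than the sum of their SDs, except that Oas3 lay below Oasl1 by more than that. With shMed4 #1 Oasl2 led (3.94 ± 0.61), followed by Oas1a (3.08 ± 0.51), Oas1b (2.59 ± 0.31), Oasl1 (2.06 ± 0.47), Oas3 (1.18 ± 0.061), Oas2 (0.987 ± 0.26), Oas1c (0.852 ± 0.35) and Oas1g (0.363 ± 0.21). Here too the step from Oasl1 to Oas3 was the one larger than the sum of the SDs. With shMed4 #4 Oas1b was again first (1.56 ± 0.23), ahead of Oasl1 (0.975 ± 0.25), Oasl2 (0.971 ± 0.17) and Oas1a (0.935 ± 0.27). Below them came Oas1c (0.477 ± 0.055), Oas1g (0.227 ± 0.31), Oas3 (0.145 ± 0.035) and Oas2 (0.138 ± 0.072), and the steps after Oas1b and after Oas1a exceeded the sum of the SDs. All levels of the family were low beside Abce1, which stood at 94.1 ± 3.3 CPM per kilobase in NTC.

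Genes next to the family had smaller changes under shMed4 #1 than the members that rose. The Oas1, Oas2 and Oas3 genes form 1 cluster of 10 genes on chromosome 5 (120730333 to 120921652). The 5 nearest tested protein-coding genes on each side had log2 fold changes of -0.21 to 0.68 under shMed4 #1 (median 0.09) and of -0.26 to 0.64 under shMed4 #4 (median 0.16). Of these 10 genes, 3 rose and 2 fell under shMed4 #1, and 4 rose and 2 fell under shMed4 #4. All tested genes gave 21.8% higher and 19.8% lower under shMed4 #1, and 27.8% and 27.3% under shMed4 #4. Around Oasl2 and Oasl1 (114896936 to 114937915) the range over 10 such genes was -0.08 to 0.64 under shMed4 #1 (median 0.18) and -0.81 to 0.41 under shMed4 #4 (median 0.08). There 3 rose and 0 fell under shMed4 #1, and 4 rose and 1 fell under shMed4 #4. Each of the 6 members that rose under shMed4 #1 had a larger fold change than every one of these neighbours.

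**Figure D3:**
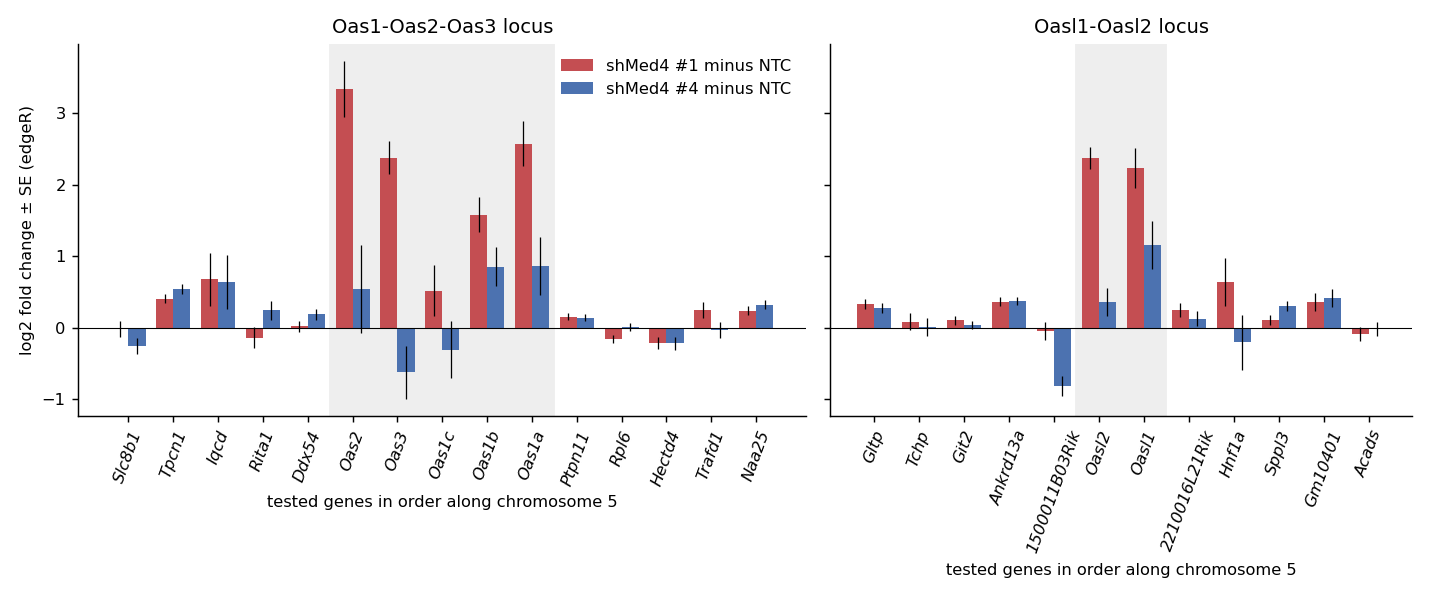
Log2 fold change against NTC (edgeR estimate ± SE, 3 libraries a group) of the tested members (grey band) and of the 5 tested protein-coding genes on each side, in gene order along chromosome 5 and not to scale. Bars of shMed4 #1 reach 1.58 to 3.34 at 6 members and no more than 0.68 at the neighbours, while Oas1c, inside its cluster, is at 0.52.

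Abce1, which encodes a ribosome recycling factor also known as an inhibitor of the oligoadenylate pathway, fell with both hairpins. It went from 565 ± 20 CPM in NTC to 441 ± 17 under shMed4 #1 and 455 ± 11 under shMed4 #4 (SD over 3 libraries). In log2 units it differed from NTC by -0.36 under shMed4 #1 (SE 0.05, edgeR adjusted p = 1.77e-07) and -0.31 under shMed4 #4 (SE 0.05, edgeR adjusted p = 1.11e-06). Pde12, a phosphodiesterase that degrades oligoadenylates, had log2 fold changes of -0.05 and -0.17 with the hairpins in that order (edgeR adjusted p = 0.729 and 0.133). Akap7, a kinase-anchoring protein with a phosphodiesterase domain, had -0.09 and -0.31 (edgeR adjusted p = 0.658 and 0.0924). Of these 3 genes only Abce1 passed the test, lower under both hairpins. Under shMed4 #4, Pde12 passed without NTC replicate 3 (-0.25, edgeR adjusted p = 0.0421) and Akap7 without NTC replicate 1 (-0.42, edgeR adjusted p = 0.0361).

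Irf7, Irf9 and Stat2, factors that act on the family, also rose under shMed4 #1. Irf7, induced by interferon and a driver of further interferon production, had 10, 13 and 14 reads in NTC, 87, 79 and 83 under shMed4 #1 and 25, 20 and 22 under shMed4 #4. The 3 groups were separate, as for Oasl1 and Oas1b. Its log2 fold change was 2.68 under shMed4 #1 (SE 0.22, edgeR adjusted p = 8.04e-13) and 0.82 under shMed4 #4 (edgeR adjusted p = 0.0143). The second call was lost without NTC replicate 1 (0.69, edgeR adjusted p = 0.0666) and without shMed4 #4 replicate 1 (0.75, edgeR adjusted p = 0.0519). Irf9 went from 24.5 ± 3.4 CPM in NTC to 50.3 ± 1.9 under shMed4 #1 (log2 1.03, edgeR adjusted p = 5.77e-12) and 27.8 ± 3.1 under shMed4 #4 (log2 0.18, edgeR adjusted p = 0.131), with SD and n = 3 each. Its partner Stat2 rose by 0.37 under shMed4 #1 (edgeR adjusted p = 0.00023). Under shMed4 #4 it stood at -0.05 (edgeR adjusted p = 0.627).

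Over the whole list of interferon receptors, kinases and factors, 8 of 16 tested genes rose and 0 fell under shMed4 #1 (median log2 fold change 0.20). With shMed4 #4, 5 rose and 4 fell (median 0.11), shares near those of all tested genes (27.8% higher, 27.3% lower), whereas under shMed4 #1 all tested genes gave 21.8% and 19.8%. The receptor chains Ifnar1 and Ifnar2 had log2 fold changes of -0.01 and 0.05 under shMed4 #1 (edgeR adjusted p = 0.948 and 0.63). Irf1 and Irf2, factors that bind related promoter letters, stood at 0.09 and 0.01 under shMed4 #1 (edgeR adjusted p = 0.315 and 0.923) and fell under shMed4 #4, by 0.40 and 0.59 on the log2 scale (edgeR adjusted p = 1.53e-05 and 4.15e-07). Of the 6 feedback inhibitors of interferon signalling, 3 rose under shMed4 #1, among them Usp18, a protease that removes ISG15 from proteins and blunts receptor signalling (0.95, edgeR adjusted p = 0.00105). Usp18 stood at -0.55 under shMed4 #4 (edgeR adjusted p = 0.107), where 1 of the 6 rose and 1 fell. The phosphatase Ptpn6 rose with both hairpins (1.17 and 1.49, edgeR adjusted p = 1.69e-12 and 3.94e-16).

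Interferon transcripts themselves were at or near 0. Of 21 interferon genes, 5 had a read in any library, and none passed the filter. Ifnb1, the interferon that cells other than leukocytes typically make first, had 2, 1 and 3 reads in the shMed4 #1 libraries and 0 in the other 6. A count of 0 allows up to 0.128 CPM over the NTC libraries and 0.120 CPM over those of shMed4 #4, for counting error only, and shMed4 #1 stood at 0.239 CPM, so the values are near the limit of this depth. With no low-count filter the edgeR adjusted p of Ifnb1 under shMed4 #1 was 0.104. Ifna13 had 6, 3 and 9 reads in NTC, 5, 1 and 7 under shMed4 #1 and 0, 1 and 5 under shMed4 #4, with overlap between all groups. The others with a read were Ifne, Ifna4 and Ifnab, at no more than 3 reads in a library.

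Like the family, the genes counted next encode sensors of foreign nucleic acid and their adaptors. With shMed4 #1, 6 of 14 tested sensors and adaptors rose and 4 fell; under shMed4 #4, 2 rose and 6 fell. Over all tested genes 21.8% rose and 19.8% fell under shMed4 #1, and 27.8% and 27.3% under shMed4 #4, so calls in both directions are also what the background holds. Ddx58, which encodes the RNA sensor RIG-I, went from 36.7 ± 2.9 CPM in NTC to 81.2 ± 2.8 under shMed4 #1 and 39.6 ± 1.0 under shMed4 #4 (SD, n = 3 each). Its log2 fold change under shMed4 #1 was 1.15 (edgeR adjusted p = 2.81e-16), and that under shMed4 #4 was 0.11 (edgeR adjusted p = 0.223). Dhx58 and Zbp1 rose by 1.41 and 1.92 under shMed4 #1 (edgeR adjusted p = 5.76e-07 and 1.37e-07), and stood at -0.22 and -0.15 under shMed4 #4 (edgeR adjusted p = 0.496 and 0.744). Eif2ak2, which encodes the kinase PKR, rose with both hairpins, by 1.10 and 0.54 (edgeR adjusted p = 1.38e-13 and 2.86e-06).

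The gene of the DNA pathway adaptor STING, Tmem173, also rose with both, and more under shMed4 #4 (1.02 and 1.36, edgeR adjusted p = 7.46e-13 and 3.57e-17). In contrast, the endosomal RNA receptor Tlr3 fell with both, by 0.26 and 1.30 on the log2 scale (edgeR adjusted p = 0.0483 and 1.58e-11). The shMed4 #1 value of Tlr3 lost its call in 11 alternatives, among them DESeq2 (adjusted p = 0.14), the replicate block (edgeR adjusted p = 0.057) and the fit without shMed4 #1 replicate 3 (-0.18, edgeR adjusted p = 0.247). Ifih1, which encodes the RNA sensor MDA5, was not tested: it had 0 reads in NTC, 3, 8 and 2 under shMed4 #1 and 1, 4 and 0 under shMed4 #4.

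**Figure D4:**
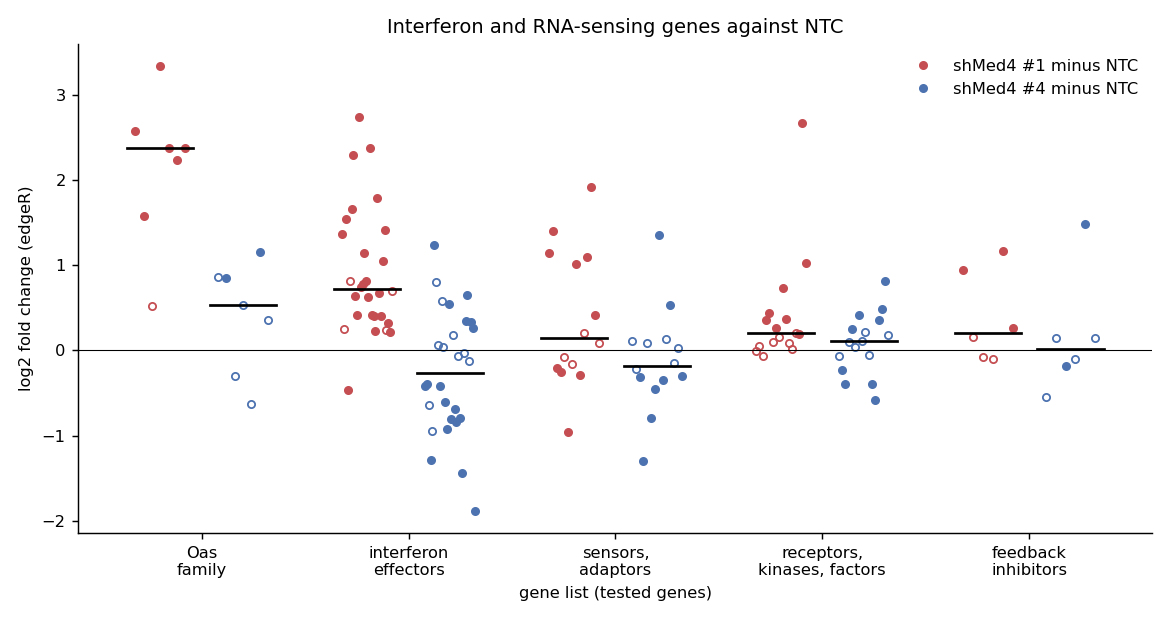
Log2 fold change against NTC of every tested gene in 5 lists, under shMed4 #1 in red and shMed4 #4 in blue; filled points passed an edgeR adjusted p of 0.05, open points did not, and black lines are medians. With shMed4 #1 the medians are 2.38 for the Oas family and 0.72 for the effectors, and under shMed4 #4 they are 0.54 and -0.26.

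Other interferon effector genes, which share the family's known route of induction, were counted next. With shMed4 #1, 23 of 28 tested effectors rose and 1 fell (median log2 fold change 0.72). With shMed4 #4, 6 rose and 12 fell (median -0.26). In the direct comparison 26 of 28 were lower under shMed4 #4 and 0 higher. Over all tested genes the shares were 21.8% higher and 19.8% lower under shMed4 #1, 27.8% and 27.3% under shMed4 #4, and 14.2% and 13.9% in the direct comparison. Mx2, Ifi44, Ifit3 and Phf11d passed the low-count filter only through the shMed4 #1 libraries, so these counts describe the tested effectors and support nothing further. Isg15, a ubiquitin-like protein, went from 10.4 ± 0.40 CPM in NTC to 27.0 ± 4.3 under shMed4 #1 and 7.78 ± 1.7 under shMed4 #4 (SD, n = 3 each). It rose by 1.37 and fell by 0.42 on the log2 scale with the hairpins in that order (edgeR adjusted p = 4.24e-11 and 0.0293). The fall of Isg15 lost its call with DESeq2 (adjusted p = 0.0536), without NTC replicate 1 or 3 (edgeR adjusted p = 0.0686 and 0.0685) and without shMed4 #4 replicate 3 (-0.25, edgeR adjusted p = 0.234). Parp9 likewise rose by 0.63 under shMed4 #1 and fell by 0.80 on the log2 scale under shMed4 #4 (edgeR adjusted p = 8.86e-08 and 7.82e-09).

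Parp14 was closer to Oasl2, at 2.38 under shMed4 #1 (edgeR adjusted p = 2.61e-12) and 0.18 under shMed4 #4 (edgeR adjusted p = 0.613). Apobec3 and Ifitm3, restriction factors of retroviruses and of virus entry, rose with both hairpins: Apobec3 by 1.42 and 0.66 (edgeR adjusted p = 9.68e-13 and 3.98e-05) and Ifitm3 by 1.66 and 1.24 (edgeR adjusted p = 2.05e-22 and 1.46e-18). Ifit2 was the effector that fell under shMed4 #1, by 0.46 on the log2 scale, and it fell by 1.29 under shMed4 #4 (edgeR adjusted p = 6.66e-05 and 8.75e-14).

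Markers were checked because leukocytes express the family strongly. The summed level of 12 leukocyte markers was 15.6 to 17.4 CPM in NTC, 13.9 to 14.5 under shMed4 #1 and 14.6 to 16.6 under shMed4 #4. Csf1r (10.4 ± 0.14 CPM in NTC) and Cd68 (4.85 ± 0.60) gave most of it, and 4 of the 12 had 0 reads in each group. Of 12 breast carcinoma markers, Vim stood at 1950 ± 25 CPM in NTC, while Epcam had 0 reads in NTC and Cdh1 and Pgr had 0 reads in all libraries. Krt8 and Krt18, the keratins of luminal epithelium, were higher under both hairpins and highest under shMed4 #4: Krt8 stood at 3.93, 19.2 and 53.9 CPM and Krt18 at 20.4, 80.8 and 133 CPM in NTC, shMed4 #1 and shMed4 #4. Vim went the other way, at 1950, 1501 and 1101 CPM in the same order, and Erbb2 stood at 43.2, 35.2 and 39.6 CPM. The sum of the 12 carcinoma markers, most of it Vim, was 2018, 1638 and 1329 CPM. The summed level of 4 endothelial markers, most of it Cdh5, was 1.29 to 1.87 CPM in NTC, 2.73 to 3.93 under shMed4 #1 and 2.07 to 3.10 under shMed4 #4. That of 6 fibroblast markers was 260.1 to 292 CPM in NTC, 226 to 240.2 under shMed4 #1 and 213 to 229 under shMed4 #4. Pdgfra and Pdgfrb carried that sum, while Col1a1 of the same list went the other way, at 15.5, 46.4 and 51.5 CPM in NTC, shMed4 #1 and shMed4 #4. The part of these markers in the family's values was not tested.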

How the data were processed

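RNA of 9 D2A1-d libraries was read on a BGISEQ-500 (per the labels' protocols). The submitters' processing notes name STAR, HTSeq and the mouse build mm10 (GRCm38); their versions, the annotation release and the strand setting were not given in the sources used here. The deposited values are raw read counts per gene. Lines that name no gene were left out: 49.5 to 51.6% of all records fell in no gene and 10.5 to 11.6% aligned to several places. With the strand setting unknown, antisense reads may be included. The limits given for a count of 0 cover counting error only; SDs, SEs and p-values include the spread between libraries.

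The fit used R 4.3.3 and edgeR 4.0.16: filterByExpr with a minimum count of 10, TMM factors (0.969 to 1.02), 1 quasi-likelihood model with 3 groups, and Benjamini-Hochberg adjustment over 14335 genes. SE is the log2 fold change divided by the square root of F, and 95% intervals are ± 1.96 SE. The step was tested on simulated counts. Libraries within a group differed by more than counting noise (chi-square over its degrees of freedom, 1.53 to 2.94). Alternatives were DESeq2 1.42.0, limma-voom 3.58.1, other factors and filters, fits of only the libraries compared, the replicate block, a threshold of 0.01 and leaving out each library.

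Of 55335 identifiers, 55154 matched a symbol. Coordinates are from GENCODE M21 and promoters from RefSeq (GRCm38.p6). The members and lists were chosen with earlier results of these data known. Named by rule were Med4, all members, the genes that act on the oligoadenylate pathway, the receptors, kinases and factors, and up to 6 genes of each other list with the smallest adjusted p. Also by rule were 3 genes per member with the nearest pair of log2 fold changes, and 5 neighbours on each side. Interferon genes, Ifih1, markers, Gm43069 and the effectors named for the filter were named after their values were seen. Some genes of these lists are not reported here.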

Additional observations from a re-analysis of the deposited data

Results flagged for a closer look

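For 6 of the 7 tested members the effect against NTC differed between the hairpins, by the direct contrast of shMed4 #4 minus shMed4 #1. In that contrast 28.0% of all tested genes passed, 13.9% lower and 14.2% higher. The log2 differences were -3.01 for Oas3, -2.80 for Oas2, -2.02 for Oasl2, -1.71 for Oas1a, -1.08 for Oasl1 and -0.73 for Oas1b, with edgeR adjusted p of 7.88e-12, 1.09e-07, 7.44e-14, 6.46e-06, 0.000629 and 0.00972 in that order. All 3 shMed4 #4 libraries lay below all 3 shMed4 #1 libraries for each of these genes. The same held for Oas1c, which did not pass in this contrast (edgeR adjusted p = 0.0905). How many of all tested genes are separated in this way was not counted. Oas2 passed the low-count filter only through the shMed4 #1 libraries, and Oas1b lost its call in 3 alternatives. Med4 itself was higher under shMed4 #4 than under shMed4 #1, by 0.67 on the log2 scale (edgeR adjusted p = 0.00401). Its part in these differences was not tested. Only 3 libraries a group were made, too few to judge single libraries as outliers.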

How the results depend on the processing

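All 6 members that rose under shMed4 #1 kept that call in every alternative run. For shMed4 #4 against NTC, leaving out 1 library gave 2 to 4 members higher (4 without shMed4 #4 replicate 1), and the summed Oas1 genes gave a log2 fold change of 0.398 to 0.783. That sum lost its call without NTC replicate 1 (0.398) and without shMed4 #4 replicate 3 (0.474). Oasl2 passed under shMed4 #4 without shMed4 #4 replicate 3 (0.50, edgeR adjusted p = 0.0492).

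Values that changed sign were not called in any of these fits. Upper-quartile factors gave -0.00886 for Jak1 under shMed4 #4 and -0.0184 for Irf2 under shMed4 #1, and no low-count filter gave 0.00124 for Ifnar1 under shMed4 #1; the cause was not tested. Leaving out each library gave, under shMed4 #1, -0.126 to 0.0222 for Pde12, -0.205 to 0.0333 for Akap7, -0.0610 to 0.0362 for Ifnar1 and -0.0423 to 0.0642 for Irf2. Under shMed4 #4 it gave -0.0877 to 0.00704 for Stat2, -0.485 to 0.343 for Zbp1 and -0.0127 to 0.343 for Parp14. Between the hairpins it gave -0.0872 to 0.00403 for Ifnar1 and -0.134 to 0.0506 for Tyk2.

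Replicate numbers are shared across groups, but same-numbered libraries did not deviate together (correlations -0.0586 to 0.0352). The labels do not say whether they were handled together, and deviations from means of 3 libraries cannot settle it. With the replicate block 6 members were higher under shMed4 #1, 2 under shMed4 #4, and 6 were lower under shMed4 #4 than under shMed4 #1; the summed Oas1 genes stood at 1.72, 0.64 and -1.09. Low read numbers limit Oas1g, Oas1c and Oas2 most.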

Other observations

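The genes nearest to each member by their pair of log2 fold changes (shMed4 #1 and shMed4 #4, each against NTC, over all 9 libraries) were sought among 10164 genes whose mean level reached 5 CPM. Members and genes with clone or predicted names were left out. The mean was taken over all 9 libraries, so genes high only under shMed4 #1 could reach it. Parp14 and Rtp4 did so, at 12.8 and 11.6 CPM under shMed4 #1 and below 5 CPM in NTC and shMed4 #4. Likeness is the distance between the pairs in log2 units. Parp14 was nearest to Oasl2 (0.19). Apol9a, an apolipoprotein L gene, was nearest to Oasl1 (0.17), with 2.10 and 1.25 against 2.24 and 1.16. Alpl, which encodes a phosphatase of bone mineralisation, was nearest to Oas1b (0.08), followed by Slfn8 (0.22). Pdgfrl, at 2.73 and 0.65, was nearest to both Oas1a (0.26) and Oas2 (0.62), and Rtp4 to Oas3 (0.61); genes below 5 CPM were not ranked and some, such as Irf7 beside Oas1a, lie nearer. Gprc5b was nearest to Oas1c (0.05), in a range of values that many genes share.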
